A study of Mus musculus with 19 samples.

Results

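The effect of calorie restriction (CR) on the cornea, beyond the circadian clock, was described from the 10 cornea libraries of a series of 19. These were the 5 libraries labelled CR 50W (animals 1, 2, 3, 4 and 7) and the 5 labelled AL-50W (animals 1 to 5), where AL stands for ad libitum feeding, and they were chosen by tissue and diet label alone. All mice were of the C57BL/6 strain (C57BL/6J females by the study's methods) and carried no genetic change that the labels name. Every title also carries 6M, and neither 6M nor 50W is defined in the labels. According to the methods, the ration was cut stepwise and held for several months from early middle age, CR mice received their food once a day shortly before dark, and the corneal epithelium was scraped off for RNA. The chow differed between AL and CR mice in 1 of the cohorts, where CR chow was richer in vitamins and micronutrients. Which cohort gave these libraries, and at what hour the tissue was taken, was not given in the sources used here, so ration, chow composition and feeding time cannot be told apart. Nothing states that the 10 libraries came from separate extractions, so p-values measure only the spread between these libraries.

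The cornea is covered by a stratified squamous epithelium that is renewed from basal and limbal cells. Its cells leave the cycle, move towards the tear film, form tight junctions and a mucin coat at the surface, and are shed. The layer takes up glucose from the aqueous humour, detoxifies light-generated aldehydes with abundant crystallin-like enzymes such as ALDH3A1 and transketolase, and regulates its water content through aquaporins. Calorie restriction is known in other tissues for slower growth signaling, raised glucocorticoid tone and a shifted feeding rhythm.

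Promoter stretches of 60 bases are shown for called genes outside the clock lists that were named by rule, as given under processing. Each had a window with the canonical E-box CACGTG, the element bound by CLOCK and BMAL1 and by other basic helix-loop-helix factors. This element was chosen because clock genes led the same comparison. Each window ran from 250 bases before to 50 bases after a RefSeq start site (GRCm38.p6). The stretches read 5′ to 3′ on the strand of the gene, with the E-box in capitals.
Coq10b (chr1:55052666-55052725, plus strand): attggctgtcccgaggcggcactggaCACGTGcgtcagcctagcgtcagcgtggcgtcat
Cpeb1 (chr7:81454709-81454768, minus strand): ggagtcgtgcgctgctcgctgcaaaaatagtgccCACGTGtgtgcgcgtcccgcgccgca
Fkbp5 (chr17:28486285-28486344, minus strand): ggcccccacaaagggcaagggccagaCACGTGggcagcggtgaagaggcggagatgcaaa
Pfkfb3 (chr2:11502110-11502169, minus strand): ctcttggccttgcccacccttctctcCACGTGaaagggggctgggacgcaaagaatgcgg
Adtrp (chr13:41847689-41847748, minus strand): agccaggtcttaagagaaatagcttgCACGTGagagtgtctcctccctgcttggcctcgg
Aqp5 (chr15:99590915-99590974, plus strand): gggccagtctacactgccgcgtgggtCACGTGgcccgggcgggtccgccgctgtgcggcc
Farsb (chr1:78488903-78488962, minus strand): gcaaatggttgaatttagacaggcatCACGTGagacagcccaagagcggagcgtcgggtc
The first 4 genes were higher under CR and the last 3 lower, as given below. The stretches of *Cpeb1*, *Fkbp5*, *Pfkfb3* and *Aqp5* lie inside the GENCODE spans of their genes, so these start sites are not the outermost ones. In *Cpeb1* the E-box lies 24 bases after the start site, and *Pfkfb3* had it in 1 of 2 windows. Which start sites were used in the cornea was not tested. *Gadd45b*, *Eef2k*, *Ankrd12*, *Prdx4* and *5930430L01Rik*, also mentioned below and called higher, had such a window too but were not named by rule and are not shown. The E-box, which reads the same on both strands, stood in a window of 11.8% of the 9842 tested genes that had one. Windows were held for 60 of the 81 higher and 41 of the 57 lower called genes outside the clock lists. The E-box stood in a window of 14 of these 60 (23.3%) and of 5 of these 41 (12.2%). The remaining called genes had no window, and the shares were not tested.

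The libraries held from 10350000 to 13130000 counted reads under AL and from 10410000 to 14680000 under CR, so a gene with 0 reads could still have had up to 3 reads, or 2.27 to 3.30 normalized counts. Corneal epithelial markers were strong in every library. Their sum lay between 651200 and 743500 normalized counts under AL and between 544100 and 779100 under CR (two-sided exact permutation test, p = 0.556), and 1 of the 12, *Wnt7a*, was at or below 3 reads on average. Of the other marker lists, every sum but that of the corneal endothelium did not separate the diets (exact permutation p from 0.0794 to 0.905). Corneal endothelial markers had 180.4 to 217.8 under AL and 73.4 to 190 under CR (exact permutation p = 0.0476, unadjusted for the 13 sums tested). Lens crystallins *Cryba1*, *Crybb2* and *Crygs* and the lens channel gene *Mip* were at 0 in all libraries, and 8 of 9 listed lymphocyte markers were at or below 3 reads on average.

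The share of genes without a read was 39.0%, 38.7%, 39.1%, 45.2% and 40.7% in AL 1 to AL 5 and 39.9%, 46.1%, 45.6%, 42.7% and 47.6% in CR 1, CR 2, CR 3, CR 4 and CR 7. AL 4 and AL 5 thus lay within the CR range and CR 1 and CR 4 within the AL range (exact permutation p = 0.0714 for the diets). Fits that add this share as a covariate are given below. They do not settle its part in the results, since the share and the diet cannot be fully told apart in these libraries. Conjunctival and goblet cell markers summed to 60980 in CR 7 and to between 24960 and 41110 in the other 9 libraries. Every library below is given in the order AL 1, 2, 3, 4 and 5 and then CR 1, 2, 3, 4 and 7. The bars of unread genes by library show AL 4 at the height of the CR bars.

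**Figure D1:**
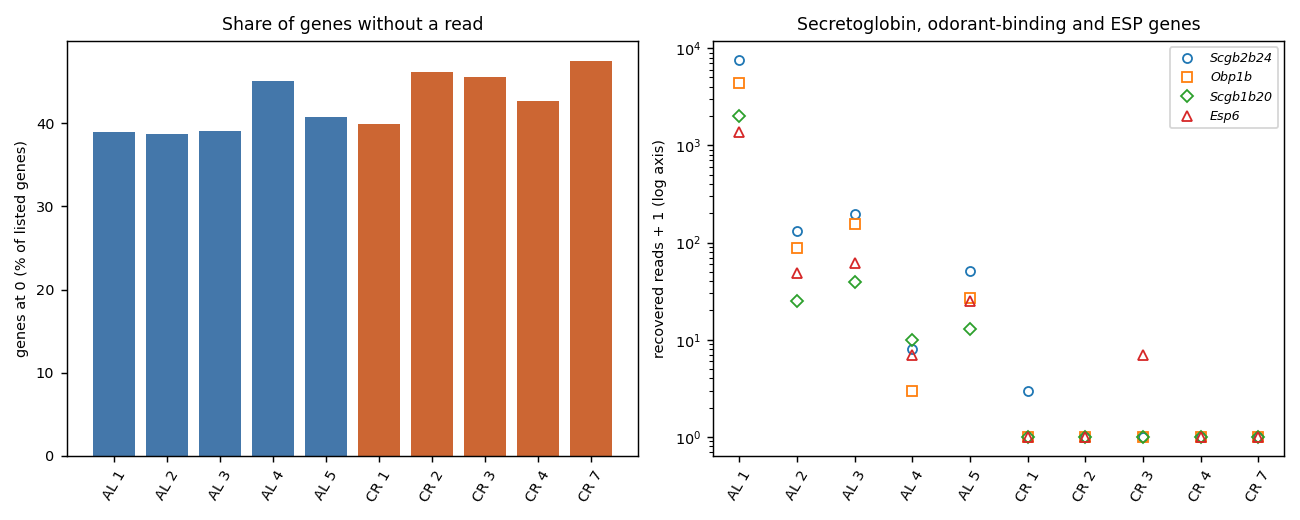
Left, percentage of listed genes with 0 reads in each cornea library (bars from 0, blue AL, orange CR). Right, recovered reads plus 1 on a log axis for 4 secreted gland-type genes in the same libraries. On the left AL 4 (45.2%) has the highest AL bar and CR 1 (39.9%) the lowest CR bar. On the right AL 1 holds most reads of each gene while the CR libraries lie at 0 to 6 reads.

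Outside the 18 clock genes, CR changed a small set of genes. Of all 12278 genes tested with limma, 150 (1.22%) passed an adjusted p under 0.05 with a change of more than 1.5-fold, 92 higher (0.749%) and 58 lower (0.472%). Of these, 12 were clock genes, which left 138 of 12260 other genes (1.13%), 81 higher and 57 lower under CR. In 105 of the 138 every CR library lay beyond every AL library, against 3.97% of all tested genes. The 138 were called in these same libraries, so this share follows in large part from the choice and is no separate evidence. Changes were mostly modest. A change of 1.5- to 2-fold was seen in 49 of the higher and 37 of the lower genes, and the median changes were 1.84-fold and 1.75-fold. An unadjusted p under 0.05 was reached by 2219 genes (18.1%). Positive changes were found in 5753 of all 12278 genes (46.9%) and negative ones in 6525. The sign counts of the lists below are to be read beside these.

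The number called moved strongly with single libraries. Without AL 1, AL 2, AL 3 or AL 5 it was 55, 50, 52 and 44 genes outside the clock lists, and without CR 2 or CR 3 it was 58 and 49. Leaving out AL 4, the AL library with the most unread genes, gave 524, and leaving out CR 1, the CR library with the fewest, gave 297. It was 171 without CR 4 and 151 without CR 7. Adding the share of unread genes to the fit gave 54, and 38 of the 138 kept their call there. Without AL 4 and CR 1 together, chosen after seeing the data, 136 of the 138 kept it. Of the 138, 39 kept their call in all 10 fits that left out 1 library (24 higher, 15 lower). Of the 30 genes of smallest p whose diets do not overlap, 15 in each direction, 29 did so, and *C2cd4b* did not. These 30 were chosen by p and separation in the same libraries, so this share is no separate evidence. In the plot of every tested gene, only the clock gene *Per2* has a smaller p than *Ccnd2*.

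**Figure D2:**
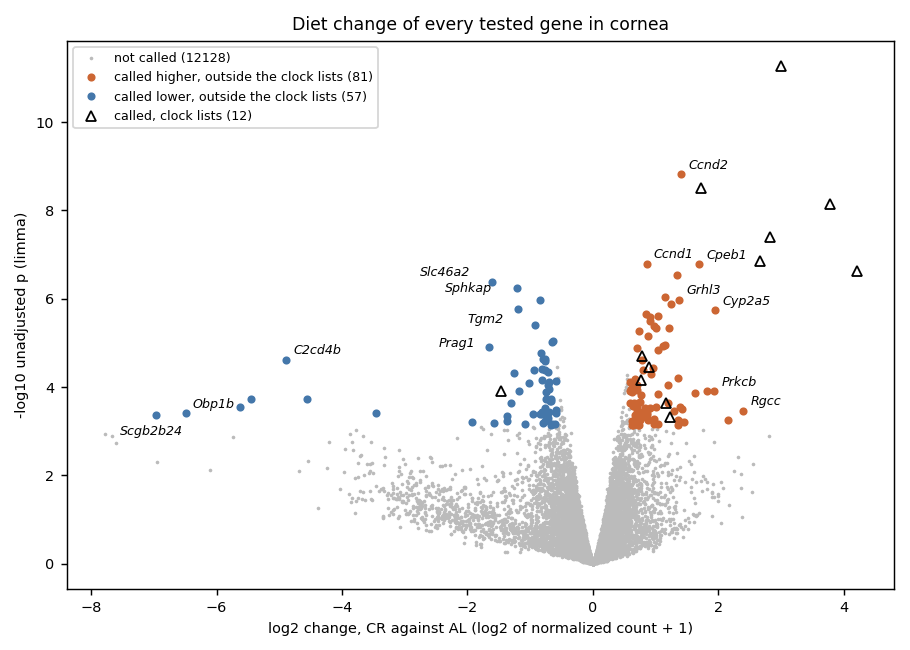
Log2 change (CR against AL, of normalized count + 1) on the x axis and -log10 of the unadjusted limma p on the y axis, 1 point per tested gene. Orange and blue points are the 81 higher and 57 lower genes outside the clock lists, open triangles the 12 called clock genes, and grey points the genes not called; the 4 gland-type genes and *C2cd4b* lie far left.

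Cell cycle genes gave the clearest single changes, and they did not all move one way. *Ccnd2*, which encodes cyclin D2, a partner of CDK4 and CDK6 in G1, stood at 3945, 3333, 3570.1, 4609.7 and 3253 in the AL libraries and 9971, 11609, 8844, 7669.7 and 11665 in the CR libraries. The lowest CR library was above the highest AL library (log2 change 1.40 ± 0.13 SE, adjusted p 9.21e-06). *Ccnd1*, encoding cyclin D1, was measured at 8988, 7994, 7446, 9116 and 7399.7 in the AL libraries and 12743, 15080, 14240, 14488 and 17678 in the CR libraries, again without overlap (log2 change 0.86 ± 0.11 SE, adjusted p 0.000251). *Ccng2*, encoding cyclin G2, a cyclin of resting cells, rose from 398 ± 41.9 to 649 ± 151 (log2 change 0.68 ± 0.16 SE, adjusted p 0.0386), a call lost without AL 1, AL 2, AL 3, AL 5, CR 3, CR 4 and CR 7, with an adjusted p of up to 0.128. Among 21 genes for D cyclins, their kinases and inhibitors, these 3 were called higher and none lower, with 10 positive changes and a median log2 change of -0.061. The CDK inhibitor gene *Cdkn1b* (p27) had -0.50, adjusted p 0.13, and *Ccnd3* had -0.36, adjusted p 0.221.

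Genes of replication and mitosis had mostly negative changes. Of 24 tested, 18 had negative changes and the median was -0.22, beside -0.027 over all genes. *Cdk1*, the kinase that drives entry into mitosis, fell from 757 ± 77.0 to 483 ± 97.2 (log2 change -0.67 ± 0.15 SE, adjusted p 0.028). This call was lost without AL 1, AL 2, AL 5, CR 2 and CR 3, with an adjusted p of up to 0.0969. *Top2a*, the topoisomerase of dividing cells, passed the adjusted p but not the fold (log2 change -0.53 ± 0.13 SE, adjusted p 0.0436), and *Mki67*, a marker of cycling cells, did not pass (log2 change -0.45 ± 0.15 SE, adjusted p 0.124). *Wee1*, encoding the kinase that holds CDK1 inactive and a known clock output, rose 2.04-fold, with 262, 264, 235, 339.6 and 241 in the AL libraries and 514, 465, 696, 462 and 620.4 in the CR libraries (log2 change 1.03 ± 0.15 SE, adjusted p 0.00149). *Gadd45b*, a stress-induced growth arrest gene, rose 1.84-fold (0.88, adjusted p 0.00302). *Rgcc*, encoding a regulator of CDK1 activity, showed the largest called increase outside the clock lists, from 8.82 ± 4.17 to 52.7 ± 29.7 (log2 change 2.39 ± 0.55 SE, adjusted p 0.0363), at low counts. Its call was lost without AL 1, AL 2, AL 3, AL 5, CR 1, CR 2 and CR 3, with an adjusted p of up to 0.144. The reading of cell proportions is limited in bulk RNA, since fewer dividing cells and less RNA per dividing cell cannot be told apart.

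*Cpeb1* (Gene ID 12877), encoding an RNA-binding protein that controls poly(A) tail length and translation, was among the strongest. It stood at 83.6, 71.0, 92.8, 63.7 and 63.9 in the AL libraries and 219, 318, 288, 235 and 176 in the CR libraries (log2 change 1.69 ± 0.21 SE, adjusted p 0.000251), and every CR library was above every AL library. *Usp2* (Gene ID 53376), a deubiquitinating enzyme that acts on cyclin D1 and on clock proteins, stood at 261, 309, 228, 289 and 191 in the AL libraries and 735, 768, 745, 532 and 469 in the CR libraries (log2 change 1.34 ± 0.17 SE, adjusted p 0.000354). All CR libraries again lay above all AL libraries. *Polb* (Gene ID 18970), the DNA polymerase of base excision repair, stood at 1189, 1398, 1335, 1457 and 1373 in the AL libraries and 787, 960.2, 876, 843 and 882 in the CR libraries and fell (log2 change -0.63 ± 0.11 SE, adjusted p 0.00383). Every AL library of *Polb* was above every CR library.

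**Figure D3:**
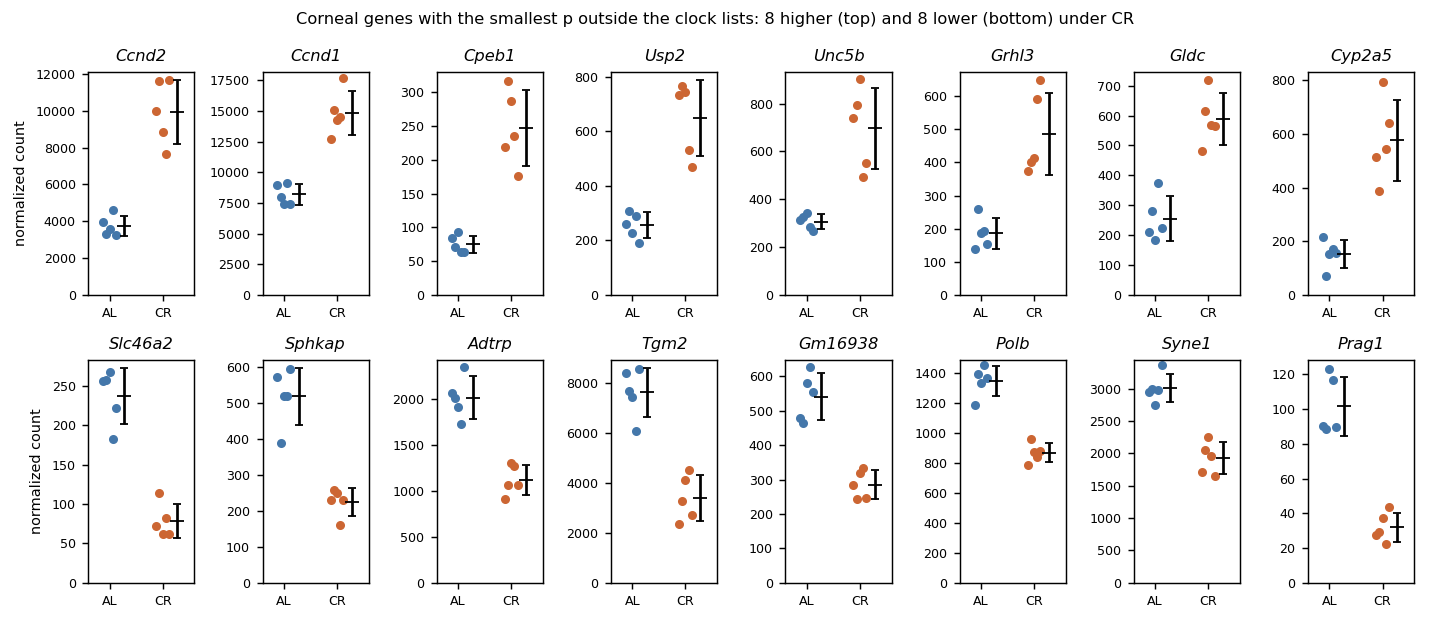
Normalized counts (y axis from 0) in the 5 AL (blue) and 5 CR (orange) cornea libraries for the 8 higher genes (top row) and 8 lower genes (bottom row) with the smallest p outside the clock lists; points are libraries, and black marks are the mean ± SD. Only called genes whose AL and CR points do not overlap were eligible, so the lack of overlap is a condition of the choice. In *Ccnd2*, for example, the ranges are 3253 to 4610 against 7670 to 11665.

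Among regulators of epithelial differentiation, *Grhl3* stood out. It encodes a grainyhead-like transcription factor needed for skin barrier formation and was at 139, 259, 186, 194 and 153 in the AL libraries and 373, 402, 414, 592 and 648 in the CR libraries, with no overlap (log2 change 1.38 ± 0.19 SE, adjusted p 0.000895). Of 21 tested transcription factor genes of the ocular surface, it was the 1 called. The others included *Pax6*, the master gene of eye development (0.088, adjusted p 0.658), *Klf4* (0.23, adjusted p 0.197), *Ehf* (0.072, adjusted p 0.722) and *Grhl1* (0.27, adjusted p 0.175), and *Trp63*, the regulator of basal epithelial cells, which passed the adjusted p but not the fold (log2 change 0.49 ± 0.12 SE, adjusted p 0.0468). Positive changes were counted in 16 of the 21 (median 0.12). Of 12 tested limbal and basal cell genes none was called (median 0.12).

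Keratin genes gave no call. Of 20 tested, 10 were positive and 10 negative, and the median was -0.025. *Krt12*, the corneal keratin, had a log2 change of -0.23 ± 0.13 SE, adjusted p 0.375, and *Krt5*, the basal keratin, log2 change 0.024 ± 0.096 SE, adjusted p 0.921. *Krt4*, a keratin of conjunctival-type epithelium, had a log2 change of 0.96 ± 0.29 SE, adjusted p 0.137 and its highest value, 10724, in CR 7, the library with the highest conjunctival marker sum. The remaining corneal markers, *Krt14* (-0.15, adjusted p 0.775), *Aldh3a1* (0.31, adjusted p 0.377), *Tkt* (-0.40, adjusted p 0.333), *Slurp1* (-0.10, adjusted p 0.651) and *Klf5* (0.18, adjusted p 0.35), were not called either.

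*Aqp5*, the water channel of corneal epithelial cells, was the exception among the 11 tested corneal markers. It was at 51183, 47407, 41588, 30146 and 51562 in the AL libraries and 30515, 27604, 26924, 36184 and 23368 in the CR libraries, and AL 4, at 30146, lay among the CR values (log2 change -0.61 ± 0.15 SE, adjusted p 0.0476). This call was lost without AL 1, AL 2, AL 3, AL 5, CR 2, CR 3 and CR 7, with an adjusted p of up to 0.143. With the share of unread genes as covariate the change was -0.32 (adjusted p 0.269). Of 19 tested water and ion transport genes it was the only one called (median -0.083). *Aqp3*, which passes water and glycerol, had the opposite sign and just missed the threshold (log2 change 0.64 ± 0.15 SE, adjusted p 0.0504), and the bicarbonate transporter *Slc4a7* had -0.55, adjusted p 0.0616.

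Of 16 tested cornified envelope and S100 genes, 14 had negative changes (median -0.25), and *Tgm2*, encoding a cross-linking transglutaminase that is not specific to the envelope, was the only one called. *Tgm2* stood at 8416, 7695, 7466, 6099 and 8568 in the AL libraries and 2343, 3292, 4131, 4527 and 2729.6 in the CR libraries, a 2.30-fold fall without overlap (log2 change -1.20 ± 0.16 SE, adjusted p 0.00121). *Sprr1a* (-0.71, adjusted p 0.121), *Ivl* (-0.62, adjusted p 0.29) and *Cnfn* (-0.82, adjusted p 0.252), which encode envelope proteins, did not pass. Called genes outside the lists included *Lgals7*, encoding galectin-7 of stratified epithelia, which was lower (log2 change -1.03 ± 0.19 SE, adjusted p 0.0154), and *Casp14*, encoding a caspase of epidermal differentiation, which was higher (log2 change 1.04 ± 0.25 SE, adjusted p 0.0476). Both were named after their values were seen, and in both AL 4 lay in or next to the CR range, at 959 for *Lgals7* and 232 for *Casp14*. The call of *Lgals7* was lost without AL 2, AL 3, AL 5 and CR 2, with an adjusted p of up to 0.0581. That of *Casp14* was lost without AL 1, AL 2, AL 3, AL 5, CR 2, CR 3, CR 4 and CR 7, with an adjusted p of up to 0.146. With the share of unread genes as covariate, *Casp14* had a log2 change of 0.44 (adjusted p 0.426).

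Junction genes gave 2 calls. *Cldn1*, a sealing claudin, was at 88.0, 170.4, 87.3, 126 and 74.2 in the AL libraries and 275, 258, 161, 217 and 315 in the CR libraries (log2 change 1.19 ± 0.24 SE, adjusted p 0.0163). The call was lost without AL 1, AL 3, AL 5 and CR 2, with an adjusted p of up to 0.0604. CR 3, at 160.6, was below AL 2, at 170.4. The other CR libraries were above all AL libraries. It was the only one called of 17 tight junction genes (11 positive, median 0.033). *Dsg2*, a desmosomal cadherin, rose from 1136 ± 208 to 1853 ± 421 (log2 change 0.70 ± 0.15 SE, adjusted p 0.0332), the 1 call among 21 desmosome, adherens and gap junction genes (13 positive, median 0.033). This call was lost without AL 1, AL 2, AL 3, AL 5, CR 2, CR 3 and CR 7, with an adjusted p of up to 0.106. *Ocln* (0.023, adjusted p 0.965), *Tjp1* (0.26, adjusted p 0.332), *Cdh1* (-0.092, adjusted p 0.638) and *Dsp* (-0.16, adjusted p 0.376), which encode occludin, ZO-1, E-cadherin and desmoplakin, were not called.

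No gene was called among 11 membrane mucin and glycocalyx genes (median -0.058) or 21 basement membrane and hemidesmosome genes (median 0.14). In the latter, 7 reached an unadjusted p under 0.05 and all 7 were positive, among them *Col17a1* (0.50, adjusted p 0.0785) and *Itga6* (0.36, adjusted p 0.152), which anchor basal cells, while 18.1% of all genes reached such a p. Of 17 tested protease and inhibitor genes, *Timp3*, a matrix metalloproteinase inhibitor, was called higher, from 645 ± 47.2 to 1032 ± 226 (log2 change 0.65 ± 0.14 SE, adjusted p 0.0292). This call was lost without AL 1, AL 2, AL 3, AL 5, CR 2 and CR 3, with an adjusted p of up to 0.0898. *Timp3* lies within *Syn3* and shares exon bases with it on the other strand, so reads of the 2 could not be told apart without strand. *Adam17*, a sheddase, passed the adjusted p but not the fold (log2 change -0.50 ± 0.12 SE, adjusted p 0.041).

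Transport genes included one of the most abundant called genes. *Slc6a6*, the taurine transporter, stood at 4944, 4387, 4930.1, 7891 and 4944 in the AL libraries and 11295, 13689, 14737, 8465 and 14248 in the CR libraries (log2 change 1.21 ± 0.17 SE, adjusted p 0.00221). AL 4 held the highest AL value, and the lowest CR value, 8465 in CR 4, was still above it. It was the 1 called of 15 amino acid and osmolyte transporter genes, of which 12 were positive (median 0.22). The arginine transporter *Slc7a1* (log2 change 0.51 ± 0.11 SE, adjusted p 0.0195) and the glutamine transporter *Slc38a2* (log2 change 0.54 ± 0.13 SE, adjusted p 0.0445) passed the adjusted p without the fold. *Slc16a11*, of the monocarboxylate transporter family, rose 2.01-fold (log2 change 1.01 ± 0.15 SE, adjusted p 0.00222). *Slc46a2*, an orphan solute carrier of the folate transporter family first known from thymic stroma, stood at 256, 258, 267, 182 and 221 in the AL libraries and 72.3, 114, 61.4, 81.7 and 62.2 in the CR libraries, with every AL library above every CR library (log2 change -1.61 ± 0.21 SE, adjusted p 0.00046).

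In energy metabolism, *Hk1*, the first enzyme of glycolysis, fell from 421 ± 27.4 to 243 ± 44.3 (log2 change -0.81 ± 0.15 SE, adjusted p 0.0103; call kept in all 10 fits that left out 1 library), and *Pfkfb3*, which makes the activator of phosphofructokinase, rose from 356 ± 18.3 to 565 ± 88.9 (log2 change 0.65 ± 0.13 SE, adjusted p 0.0163; call lost without AL 1, AL 5 and CR 3, with an adjusted p of up to 0.0636). Of 22 tested genes of glycolysis, glycogen and the pentose phosphate pathway, these were the only calls, and 16 were negative (median -0.13). *Slc2a1*, the glucose transporter, had a log2 change of -0.53 ± 0.21 SE, adjusted p 0.205. Among 21 oxidative phosphorylation genes, 19 were negative (median -0.16) with no call, and among 33 cytosolic ribosomal protein genes 29 were negative (median -0.22) with no call. Both medians turned positive, 0.023 and 0.10, with the share of unread genes as covariate. *Pdhx*, the E3-binding subunit of pyruvate dehydrogenase, was called lower (-0.85, adjusted p 0.038), a call lost without AL 1, AL 2, AL 3, AL 5, CR 2 and CR 3, with an adjusted p of up to 0.117.

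Neither list of fat handling genes gave a call. Of 17 fasting and fatty acid oxidation genes, 13 were negative (median -0.24), with *Acadvl*, very long chain acyl-CoA dehydrogenase, at a log2 change of -0.53 ± 0.17 SE, adjusted p 0.132 and *Ppara* at a log2 change of -0.66 ± 0.25 SE, adjusted p 0.194. Of 20 sterol and fatty acid synthesis genes, 13 were negative (median -0.13), and *Srebf1*, their regulator, passed the adjusted p without the fold (log2 change 0.51 ± 0.12 SE, adjusted p 0.0452). *Gldc*, the glycine decarboxylase of the mitochondrial glycine cleavage system, stood at 209, 282, 183, 373 and 223 in the AL libraries and 479.7, 615, 719, 569 and 565 in the CR libraries (log2 change 1.24 ± 0.18 SE, adjusted p 0.00103). Its highest AL value, 373.2 in AL 4, was below its lowest CR value, 479.7 in CR 1. *Coq10b*, encoding a coenzyme Q-binding mitochondrial protein, rose 1.79-fold (log2 change 0.84 ± 0.13 SE, adjusted p 0.00143), and *Adtrp*, encoding a hydrolase of fatty acid esters of hydroxy fatty acids, stood at 2061, 2010.1, 1910, 1719 and 2347 in the AL libraries and 906, 1058, 1295, 1264 and 1063 in the CR libraries (log2 change -0.85 ± 0.12 SE, adjusted p 0.000895).

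Growth and nutrient signaling lists gave 1 call. Of 15 genes that brake growth, 12 were positive (median 0.40), and *Tsc22d3* (GILZ) alone was called. An unadjusted p under 0.05 was reached by 8, all of them positive, beside 18.1% of all genes. *Tob1* (mean 83.3 ± 30.8 to 164 ± 40.4, adjusted p 0.0616) and *Klf10* (0.77, adjusted p 0.097), which encode antiproliferative factors, did not pass. There was no call among 19 genes of the insulin, IGF and FOXO pathway (15 positive, median 0.21) or 16 of mTOR and nutrient sensing (9 positive, median 0.11). *Igfbp3*, an IGF-binding protein, had a log2 change of 1.61 ± 0.49 SE, adjusted p 0.102 and *Foxo3* went from 13.4 ± 11.8 to 33.5 ± 12.8 (adjusted p 0.213). *Eef2k*, the kinase that slows translation elongation, was called higher outside the lists (log2 change 0.76 ± 0.16 SE, adjusted p 0.0218), a call lost without AL 1, AL 2, AL 3, CR 2 and CR 3, with an adjusted p of up to 0.0881.

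Glucocorticoid targets rose in part. *Tsc22d3*, the leucine zipper gene induced by glucocorticoids, stood at 539, 521, 481, 424 and 506 in the AL libraries and 1205, 1186, 1217, 1064 and 582 in the CR libraries (log2 change 1.04 ± 0.18 SE, adjusted p 0.00497), with CR 7 the lowest CR value and still above AL 1. *Fkbp5*, encoding a co-chaperone of the glucocorticoid receptor and a sensitive target of it, stood at 237, 142, 135, 136 and 85.5 in the AL libraries and 537, 394, 414, 231 and 298 in the CR libraries (log2 change 1.36 ± 0.25 SE, adjusted p 0.0137), where CR 4 was just below AL 1. The call was lost without CR 2 and CR 3, with an adjusted p of up to 0.0552. Of 14 targets tested, 11 were positive (median 0.37), these 2 were called and 6 reached an unadjusted p under 0.05, beside 18.1% of all genes. *Cebpb* (0.89, adjusted p 0.0678), *Dusp1* (0.65, adjusted p 0.2), *Sgk1* (0.34, adjusted p 0.348) and *Klf9* (0.30, adjusted p 0.48) were not called. The promoter windows described above were also searched for the glucocorticoid response element. Among called genes outside the clock lists with a window, it stood in 0 of 60 higher and 0 of 41 lower genes. Its share among all tested genes with a window was 0.396%, and these shares were not tested.

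*Cirbp*, encoding a cold-inducible RNA-binding protein that rises when body temperature falls, rose 2.17-fold (log2 change 1.12 ± 0.18 SE, adjusted p 0.00443), and *Rbm3*, the other of the 2 cold-induced genes listed, had a log2 change of 0.52 ± 0.28 SE, adjusted p 0.337. None of 16 heat shock genes was called (median 0.0021), and 8 were positive. *Dnajb4*, an HSP40 co-chaperone outside that list, rose 1.96-fold (log2 change 0.97 ± 0.15 SE, adjusted p 0.00212). The small heat shock genes *Hspb8* (0.94, adjusted p 0.0537) and *Cryab* (0.45, adjusted p 0.0495) had positive changes. None of 16 genes of the unfolded protein and amino acid stress response was called (median -0.089), none of 17 immediate early genes (13 positive, median 0.21), none of 19 autophagy and lysosome genes (median 0.049) and none of 13 sirtuin and NAD genes (median -0.024).

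Defence against oxidants and foreign compounds gave scattered calls, in both directions once genes outside the lists are counted. *Nfe2l2*, encoding the antioxidant regulator NRF2, rose from 1631 ± 256 to 2455 ± 268 (log2 change 0.60 ± 0.12 SE, adjusted p 0.0154), with AL 4, at 2077, above CR 4, at 2026. This call was lost without AL 1, AL 2, AL 3, AL 5, CR 1, CR 2 and CR 3, with an adjusted p of up to 0.0636. Of 18 antioxidant and NRF2 genes it was the 1 called, and 14 were positive (median 0.23), but its target *Nqo1* had a log2 change of 0.27 ± 0.21 SE, adjusted p 0.526 and *Srxn1* was negative (log2 change -0.56 ± 0.16 SE, adjusted p 0.0923). *Mgst1*, a membrane glutathione transferase, was the 1 called of 17 cytochrome P450, glutathione transferase and carbonyl reductase genes (10 positive, median 0.040), at 39.6, 42.6, 65.5, 46.0 and 31.9 in the AL libraries and 130.3, 101, 185, 48.0 and 162 in the CR libraries (log2 change 1.35 ± 0.34 SE, adjusted p 0.0482). Its call was lost without AL 1, AL 2, AL 3, AL 5, CR 1, CR 2, CR 3 and CR 7, with an adjusted p of up to 0.16. *Cyp2a5*, a cytochrome P450 of nicotine and coumarin metabolism, was at 216, 71.0, 153, 171 and 158 in the AL libraries and 513, 387, 795, 545 and 639 in the CR libraries (log2 change 1.95 ± 0.26 SE, adjusted p 0.00124), and its lowest CR value, 387, was above its highest AL value, 216. *Cyp2a5* has close paralogs, so the reads assigned to it are uncertain. Also outside the lists, *Akr1b7* (-0.72, adjusted p 0.0163) and *Aldh3b2* (-0.75, adjusted p 0.0263) were called lower and *Prdx4* (1.35, adjusted p 0.0445) higher. Each of these calls was lost in several fits that left out 1 library, with an adjusted p of up to 0.0693, 0.0911 and 0.141.

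*Dhrs3*, a retinaldehyde reductase induced by retinoic acid, fell from 817 ± 172 to 457 ± 48.0 (log2 change -0.82 ± 0.14 SE, adjusted p 0.00581), the 1 called of 14 retinoid genes (7 positive, median 0.0041). *Rdh10*, which makes retinaldehyde, had a log2 change of 0.50 ± 0.23 SE, adjusted p 0.262 and *Aldh1a1* log2 change 0.11 ± 0.13 SE, adjusted p 0.681. *Cyp24a1*, the enzyme that inactivates vitamin D and a target of its receptor, stood at 8.80, 19.7, 21.8, 20.3 and 12.4 in the AL libraries and 153, 38.6, 156, 104 and 21.4 in the CR libraries (log2 change 2.15 ± 0.52 SE, adjusted p 0.0445), with CR 7, at 21.4, below AL 3, at 21.8. Its call was lost without AL 1, AL 2, AL 3, AL 5, CR 1, CR 2, CR 3 and CR 4, with an adjusted p of up to 0.158. The CR chow of 1 cohort held more vitamins, and the part of chow in these values was not tested.

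In signaling, *Unc5b*, a netrin receptor, stood at 311, 324, 343, 285 and 268 in the AL libraries and 739, 794, 901, 495 and 554 in the CR libraries (log2 change 1.15 ± 0.16 SE, adjusted p 0.000872), the 1 called of 35 axon guidance and neurotrophin genes (20 positive, median 0.027). *Robo1*, the SLIT receptor, had a log2 change of -1.35 ± 0.36 SE, adjusted p 0.068. *Dll1*, a Notch ligand, rose from 122 ± 32.7 to 222 ± 43.4 (log2 change 0.87 ± 0.20 SE, adjusted p 0.0386), the 1 called of 13 Notch genes (9 positive, median 0.28). The call was lost without AL 1, AL 2, AL 3, AL 5, CR 2 and CR 3, with an adjusted p of up to 0.119. *Notch1* passed the adjusted p without the fold (log2 change 0.58 ± 0.13 SE, adjusted p 0.034). No gene was called among 22 of TGF-beta and BMP signaling, of which 19 were positive (median 0.24), 22 of Wnt signaling (13 positive, median 0.14) or 19 of the EGF receptor family, its ligands and feedback (12 positive, median 0.11), where *Spred1*, a RAS pathway inhibitor, passed the adjusted p without the fold (log2 change 0.54 ± 0.11 SE, adjusted p 0.0163).

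*Prkcb*, encoding protein kinase C beta, stood at 134, 123, 176, 209 and 132 in the AL libraries and 789.6, 841, 962, 429 and 247 in the CR libraries (log2 change 1.94 ± 0.34 SE, adjusted p 0.0195). CR 7 was the lowest CR library and close to AL 4. This call was lost without AL 1, AL 2, AL 3, AL 5 and CR 2, with an adjusted p of up to 0.0709. *Syngr1*, a synaptic vesicle protein gene, rose at low counts from 22.9 ± 9.75 to 80.6 ± 25.5 (log2 change 1.82 ± 0.38 SE, adjusted p 0.0195; call lost without AL 3, AL 5, CR 2 and CR 3, with an adjusted p of up to 0.0813). *Ptgs1*, encoding cyclooxygenase 1, rose 1.88-fold (0.91, adjusted p 0.00182), and *Lgalsl*, a galectin-like gene, 1.88-fold (0.91, adjusted p 0.00154). The protease-activated receptor genes *F2r* (log2 change 0.70 ± 0.16 SE, adjusted p 0.0358) and *F2rl1* (log2 change 0.74 ± 0.18 SE, adjusted p 0.0482) were both called higher, and were named after their values were seen. The call of *F2r* was lost without AL 1, AL 2, AL 3, AL 5, CR 2, CR 3 and CR 7, with an adjusted p of up to 0.117. That of *F2rl1* was lost without AL 1, AL 2, AL 3, AL 5, CR 1, CR 2, CR 3 and CR 7, with an adjusted p of up to 0.146.

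*Sphkap*, encoding an anchor of protein kinase A, stood at 571, 389, 518, 518 and 593 in the AL libraries and 229, 257, 248, 159 and 230.3 in the CR libraries (log2 change -1.20 ± 0.16 SE, adjusted p 0.000587), and *Syne1*, the giant nuclear envelope protein nesprin-1, at 2947, 2999, 2750.4, 2979 and 3358 in the AL libraries and 1707, 2049.5, 2258, 1962 and 1647 in the CR libraries (log2 change -0.65 ± 0.11 SE, adjusted p 0.00383). *Prag1*, which encodes a pseudokinase, was at 90.2, 88.5, 123, 117 and 89.6 in the AL libraries and 27.4, 29.2, 37.1, 22.5 and 43.7 in the CR libraries (log2 change -1.66 ± 0.28 SE, adjusted p 0.00459). In each of these 3 the highest CR library was below the lowest AL library. *Tubb2a* (-0.71, adjusted p 0.0154) and *Stmn1* (-0.81, adjusted p 0.0384), encoding a tubulin and a tubulin-binding protein, were called lower and were named after their values were seen. The call of *Tubb2a* was lost without AL 1, AL 2, AL 3, AL 5 and CR 2, with an adjusted p of up to 0.0618. That of *Stmn1* was lost without AL 1, AL 2, AL 3, AL 5, CR 2, CR 3 and CR 7, with an adjusted p of up to 0.122. Of 35 actin and cell projection genes none was called and 26 were positive (median 0.15).

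The remaining lower genes of smallest p had varied roles. *Gm16938*, a gene with no assigned function, was at 479, 464, 579.6, 629 and 554 in the AL libraries and 285, 243, 319.7, 333 and 246 in the CR libraries (log2 change -0.92 ± 0.14 SE, adjusted p 0.00211). *Farsb*, the beta subunit of phenylalanyl-tRNA synthetase, had a log2 change of -0.80 ± 0.14 SE, adjusted p 0.00715, *Senp2*, a SUMO protease, log2 change -0.77 ± 0.14 SE, adjusted p 0.00745, *Prr13* log2 change -0.77 ± 0.14 SE, adjusted p 0.00715, and *A930013F10Rik* log2 change -0.76 ± 0.14 SE, adjusted p 0.0105. With the share of unread genes as covariate, *Prr13*, *Dhrs3* and *A930013F10Rik* were the 3 of the 30 smallest-p genes that lost the call (adjusted p 0.0515, 0.0515 and 0.0683). *C2cd4b* was nearly silent under CR, with 24, 65, 79, 18 and 58 reads in AL 1 to AL 5 and 0, 0, 0, 1 and 3 in CR 1, CR 2, CR 3, CR 4 and CR 7. All its CR libraries were below all AL libraries (adjusted p 0.00724), and no fold is given for a group with so few reads. Its call was lost without AL 2, AL 3 and AL 5, with an adjusted p of up to 0.0695.

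Immune and interferon genes gave few calls. Of 23 interferon-stimulated genes, 15 were negative (median -0.19), and *Ifi27* was called lower, from 927 ± 193 to 563 ± 126 (log2 change -0.72 ± 0.17 SE, adjusted p 0.0435), a call lost without AL 1, AL 2, AL 3, AL 5, CR 2, CR 3 and CR 7, with an adjusted p of up to 0.136. *Isg15*, a ubiquitin-like interferon-induced gene, had a log2 change of -0.35 ± 0.21 SE, adjusted p 0.401. Outside the list, *Ifi47*, an interferon-induced GTPase gene, fell 2.38-fold (log2 change -1.25 ± 0.23 SE, adjusted p 0.0116) while *Ifi202b*, an interferon-inducible DNA sensor gene, rose 1.64-fold (log2 change 0.71 ± 0.12 SE, adjusted p 0.00459). These were named after their values were seen. None of 26 cytokine, chemokine and innate signaling genes was called (13 positive, median 0.013) and none of 11 antimicrobial and complement genes (5 positive, median -0.052).

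*C1qa*, a complement gene of macrophages, was the 1 called of 8 tested macrophage markers, at 49.5, 63.4, 80.8, 69.9 and 42.2 in the AL libraries and 17.5, 26.4, 15.9, 31.7 and 11.1 in the CR libraries (log2 change -1.58 ± 0.39 SE, adjusted p 0.0467), a call lost without AL 1, AL 2, AL 3, AL 5, CR 2, CR 3 and CR 7, with an adjusted p of up to 0.138. Its partners *C1qb* (-0.24, adjusted p 0.836) and *C1qc* (-0.34, adjusted p 0.821), which form the same complex, were not called. Of the 8, 7 had negative changes (median -0.36). The sum of the macrophage markers, of which *Itgam* held the largest part, was 1044 to 1500 under AL and 861 to 2165 under CR. All 6 tested genes of MHC class II and Langerhans cells were negative without a call (median -0.56), and their sum ranged from 489 to 713 under AL and from 257 to 712 under CR. The plot of list medians covers the function lists and leaves out these marker lists.

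**Figure D4:**
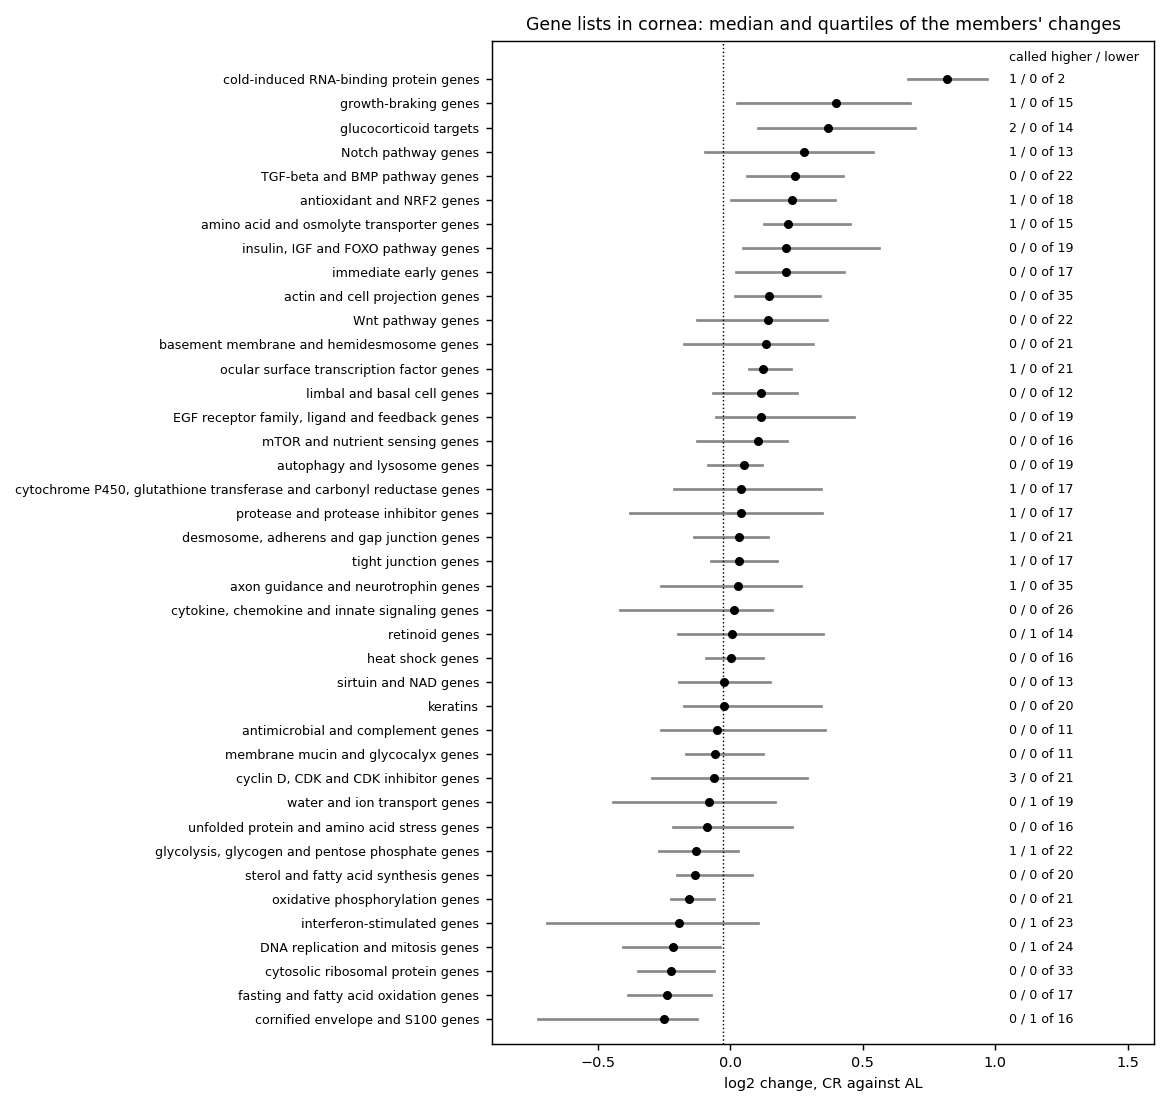
Median (point) and quartiles (line) of the members' log2 changes in 40 function lists, ordered by median; the dotted line is the median of all tested genes (-0.027), and the figures at right count members called higher and lower of those tested. The 2 cold-induced genes (0.82), growth-braking genes (0.40) and glucocorticoid targets (0.37) lie right and cornified envelope genes (-0.25) left, and no list holds more than 3 called members.

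Read over all 40 function lists, 22 of 737 tested members were called (2.99%), 16 higher and 6 lower, beside 1.22% of all genes, and 21 lists held no call. The lists were drawn up with earlier results of these data known, so this share describes them and is no test. Of the 24 called list members outside the clock, 10 kept their call in all 10 fits that left out 1 library.

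The largest fitted decreases were in secreted genes of glandular type, with most of the reads in 1 AL library. *Scgb2b24*, a secretoglobin, had 7617, 131, 197, 7 and 50 reads in AL 1 to AL 5 and 2, 0, 0, 0 and 0 in CR 1, CR 2, CR 3, CR 4 and CR 7. *Obp1b*, an odorant-binding protein, had 4387, 86, 153, 2 and 26 reads in AL 1 to AL 5 and 0, 0, 0, 0 and 0 in CR 1, CR 2, CR 3, CR 4 and CR 7. *Scgb1b20*, another secretoglobin, had 1980, 24, 38, 9 and 12 reads in AL 1 to AL 5 and 0, 0, 0, 0 and 0 in CR 1, CR 2, CR 3, CR 4 and CR 7. In each of the 3, AL 1 held most of the reads, AL 4 the fewest of the AL group, and no CR library held more than 2.

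*Esp6*, of the exocrine gland-secreted peptide family, had 1380, 48, 60, 6 and 24 reads in AL 1 to AL 5 and 0, 0, 6, 0 and 0 in CR 1, CR 2, CR 3, CR 4 and CR 7. The AL mean of *Obp1b* was at least 311.4-fold above the floor of 3 reads per CR library, and at least 22.0-fold without AL 1. For *Scgb1b20* the bounds were 138 and 6.70. Adjusted p-values were 0.0387, 0.0378, 0.0332 and 0.0263 for *Scgb2b24*, *Obp1b*, *Scgb1b20* and *Esp6*. The call of *Scgb2b24* was lost without AL 2, AL 3, AL 5, CR 2, CR 3, CR 4 and CR 7, with an adjusted p of up to 0.146. For *Obp1b* it was lost without AL 1, AL 2, AL 3, AL 5, CR 1, CR 2, CR 3, CR 4 and CR 7, with an adjusted p of up to 0.14. For *Scgb1b20* it was lost without AL 2, AL 3, AL 5, CR 2 and CR 3, with an adjusted p of up to 0.0961, and without AL 1 the gene was below the filter on low values and was not tested. For *Esp6* it was lost without AL 1, AL 2, AL 3, AL 5, CR 2 and CR 7, with an adjusted p of up to 0.161.

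The 13 listed lacrimal gland markers summed to between 263 and 33770 normalized counts under AL and between 304.5 and 715 under CR, with AL 1 at the top (exact permutation p = 0.159). *Pip* (-4.69, adjusted p 0.137), *Obp1a* (-7.67, adjusted p 0.0639) and *Scgb1b24* (-4.25, adjusted p 0.13) were near 0 under CR without passing the test, whereas *Ltf* (0.032, adjusted p 0.983) and *Car6* (-0.0097, adjusted p 0.998) were not. *Prol1* was at 0 in all libraries. The part of gland RNA in these 4 calls was not tested, and without the gland genes 146 of the 150 calls were left.

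The same diets were compared in the conjunctiva (4 AL and 5 CR libraries, from the same study in which several tissues were taken from each mouse, so the tissues are not independent), where 50 of 13929 genes were called (0.359%). Of the 138 genes called in the cornea outside the clock lists, 134 were tested there and 113 had the same sign (84.3%, against 59.9% of all 11929 genes tested in both). Of the 134, 10 were called in both tissues, which was 7.46% of these and 29.4% of the 34 such genes called in the conjunctiva. These were *Ccnd2*, *Usp2*, *Slc6a6*, *Cyp2a5*, *Lgalsl*, *Ankrd12*, *Eef2k* and *5930430L01Rik*, higher, and *Dhrs3* and *Ifi47*, lower. *Slc6a6* changed by 1.21 in the cornea and 1.51 in the conjunctiva, and *Ifi47* by -1.25 in the cornea and -1.14 in the conjunctiva on the log2 scale.

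The difference of the diet change between the tissues was tested gene by gene, and 2 of 11929 genes passed (0.0168%). *Aqp5* had a log2 change of -0.61 in the cornea and 0.60 in the conjunctiva, a difference of -1.21 ± 0.20 SE, adjusted p 0.0111. *Cpt1a*, encoding carnitine palmitoyltransferase 1A of fatty acid import into mitochondria, had -0.39 in the cornea and 0.65 in the conjunctiva, a difference of -1.05 ± 0.18 SE, adjusted p 0.0111, and was called higher in the conjunctiva and not called in the cornea (log2 change -0.39 ± 0.13 SE, adjusted p 0.133). Neither passed without AL 1 of the conjunctiva (adjusted p 0.0555). With the shared title numbers as a block, a fit added after seeing the data, no gene passed, with an adjusted p of 0.878 for *Aqp5* and 0.737 for *Cpt1a*. *Grhl3* (1.38 in the cornea and -0.052 in the conjunctiva; difference 1.43 ± 0.30 SE, adjusted p 0.0843), *Gm16938* (-0.92 in the cornea and 0.48 in the conjunctiva; difference -1.40 ± 0.29 SE, adjusted p 0.104) and *Prkcb* (1.94 in the cornea and 0.029 in the conjunctiva; difference 1.91 ± 0.39 SE, adjusted p 0.137) did not pass. The plot of both tissues shows the called genes by their change in each.

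**Figure D5:**
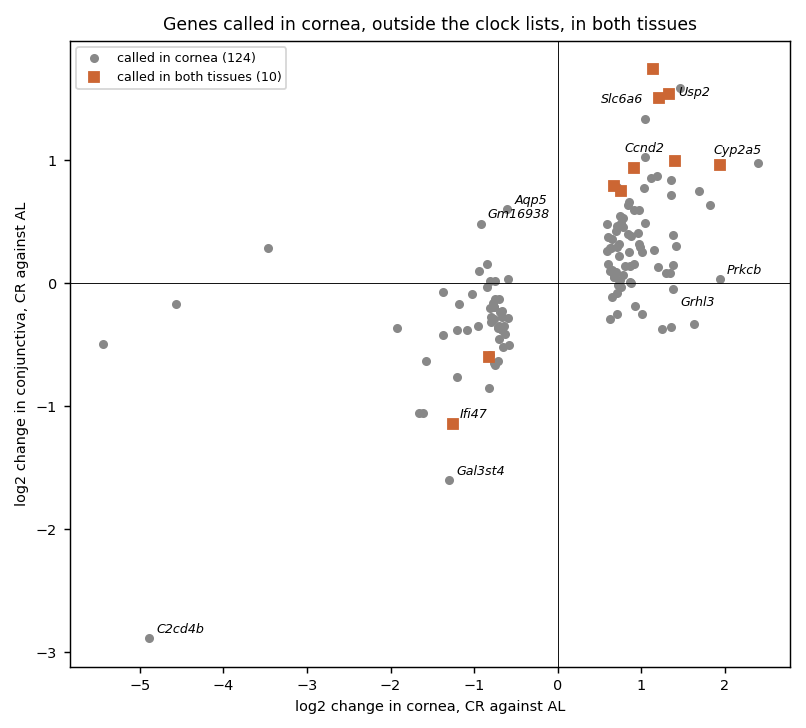
Log2 change of CR against AL in the cornea (x axis) and the conjunctiva (y axis) for the 134 genes called in the cornea outside the clock lists and tested in both tissues; orange squares are the 10 called in both. Most points lie in the upper right or lower left, and 113 share their sign; *Aqp5* and *Gm16938* are lower in the cornea with a positive value in the conjunctiva.

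By the GENCODE vM21 annotation (GRCm38), *Ccnd2* spans chr6:127125162-127152193 (minus strand), *Cpeb1* chr7:81347026-81455465 (minus), *Slc46a2* chr4:59905126-59915056 (minus), *Tgm2* chr2:158116402-158146436 (minus), *Slc6a6* chr6:91684053-91759066 (plus) and *Aqp5* chr15:99590782-99594829 (plus). Values are over all exons of a gene, and reads from overlapping genes limit some of them. Of the 138 genes, 134 were found in that annotation, and 35 of them shared at least 50 exon bases with a gene on the opposite strand and 10 with a gene on the same strand. *Ccnd1* shared 1100 bases with *LTO1*, *Tgm2* 370 with *Rprd1b* and *Farsb* 248 with *Sgpp2*, each on the other strand, and *Esp6* shared 167 with *Gm44501* on its own strand. Whether the counting used strand was not given in the sources used here.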

How the data were processed

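RNA-seq values of scraped corneal epithelium were taken as deposited. According to the study's methods, the authors trimmed reads with cutadapt, aligned them with STAR, counted them with HTSeq and scaled the counts by relative log expression with DESeq2 on the ROSALIND platform. Tool versions were not given in the sources used here. The methods name mm10 as the genome and the submitters' processing notes name GRCm39, and library kits also differ between sources (stranded mRNA kit or oligo(dT)-primed kit), so whether strand was used is unknown. The deposited table held log2(normalized count + 1) for 24557 features, 483 of them without a gene identifier, in each tissue's own table. Features with 5 repeated symbols were left out. All 19 sample columns were mapped by title, and 0 were unmapped.

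Values were converted by 2 to the power of the value, minus 1. Dividing by the smallest step gave whole reads (tolerance 0.01 reads) for 100% of values, from which depth was taken. Floors cover counting error only. SE values come from the limma fit and SD values from the libraries of a group, so both measure spread between libraries. Genes with a mean normalized count of at least 10 were tested on log2(normalized count + 1) with limma 3.58.1 (moderated test, trend and robust settings, statmod 1.5.0, R 4.3.3) without covariates, and p-values were adjusted by Benjamini-Hochberg over all genes tested. Fold changes are on that scale and understate changes of low genes. A gene was called at an adjusted p under 0.05 and over 1.5-fold. For the tissue difference, each tissue was fitted on its own. The difference of the cornea and conjunctiva log2 changes was divided by their combined standard error, with Satterthwaite degrees of freedom. These p-values were adjusted by Benjamini-Hochberg over the genes tested in both tissues. The test treats the tissues as independent, although several tissues were taken from each mouse. For single values over libraries, two-sided exact permutation tests were used (252 splits, smallest possible p 0.00794). Scripts were tested on simulated data. The alternatives were other pseudocounts, filters and scalings, array weights, voom on recovered reads, the replicate number as a block, the share of unread genes as a covariate, and leaving out libraries.

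Genes were named by rule: the 15 higher and 15 lower called genes of smallest p outside the clock lists whose diets do not overlap, called list members, corneal epithelial markers, the 5 called genes of largest change in each direction, and genes passing the tissue difference. All other genes, including list members that were not called, were named after their values were seen. The members, lists and tests were chosen with earlier results of these data known. Promoter windows and gene positions came from RefSeq (GRCm38.p6) and GENCODE vM21. Besides the E-box, the windows were searched for the D-box and the glucocorticoid response element, whose shares are given with the glucocorticoid targets. Among called genes outside the clock lists with a window, the D-box stood in 2 of 60 higher (3.33%) and 0 of 41 lower genes. Its share among all tested genes with a window was 0.864%, and these shares were not tested.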

Additional observations from a re-analysis of the deposited data

Results flagged for a closer look

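Of 158 groups of 5 libraries checked for 1 library far from the other 4, 19 (12%) were picked out. The cutoff gives about 1 in 20 for independent, normally distributed values. Here the values were not logged, some groups held reads in only 1 library and several groups share a signal. That rate is therefore no baseline for the 19. They fell in AL 1 in 6 cases, AL 4 in 5, CR 7 in 4, CR 3 in 2, and CR 1 and CR 4 in 1 each.

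AL 1 held 8380 normalized counts of *Scgb2b24* (6.19 to 215 in the other AL libraries), 4826 of *Obp1b* (1.77 to 167), 2178 of *Scgb1b20* (7.96 to 41.5) and 1518 of *Esp6* (5.31 to 65.5). It also had the highest lacrimal marker sum, 33770 (263 to 1122), and 20590 of *Slurp1* (17890 to 18410).

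AL 4 was high in *Wee1* at 339.6 (235 to 264), *Slc6a6* at 7891 (4387 to 4944), *Nfe2l2* at 2077 (1444 to 1592) and *Aldh3a1* at 218600 (112600 to 133800), and low in *Tkt* at 29930 (45990 to 50440). For the called genes among these, the AL 4 value lay on the side of the CR libraries.

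CR 7 was low in *Tsc22d3* at 582 (1064 to 1217) and high in *Krt14* at 11070 (3780 to 5623), in the conjunctival and goblet cell marker sum at 60980 (29640 to 31300) and in the lymphocyte marker sum at 37.2 (4.55 to 10.2). CR 3 was high in *Pfkfb3* at 723 (507 to 541) and held 4.55 of *Esp6*, and CR 1 held 2.19 of *Scgb2b24*, where the other CR libraries had 0. CR 4 was low in *Sphkap* at 159 (229 to 257).

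The diet change differed between cornea and conjunctiva for *Aqp5* (cornea minus conjunctiva -1.21 on the log2 scale, adjusted p 0.0111 in the test of the tissue difference) and *Cpt1a* (-1.05, adjusted p 0.0111). The cornea and conjunctiva values stood on opposite sides of 0 in both genes, and the tissues were normalized separately. Neither gene passed without AL 1 of the conjunctiva (adjusted p 0.0555) or with the shared title numbers as a block (adjusted p 0.878 and 0.737).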

How the results depend on the processing

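No called gene changed direction under the alternatives run, while medians of some uncalled lists did, as given for oxidative phosphorylation and ribosomal protein genes. The 150 genes called in cornea became 705 with array weights, 62 with the share of unread genes as covariate (46 of the 150 among them), 99 with voom on whole reads (96 shared) and 1212 without AL 4 and CR 1 together (148 shared), an alternative chosen after seeing the data. The 92 genes called higher in cornea became 60 with no filter, 261 with array weights, 39 with the covariate, 57 with voom and 394 without both libraries, and the 58 genes called lower in cornea 444 with array weights, 23 with the covariate and 818 without both. Outside the clock lists the 138 became 91 with no filter, 693 with array weights, 54 with the covariate, 87 with voom and 1200 without both. Leaving out 1 library gave 53 to 536 calls in all, 35 to 233 higher, 16 to 303 lower and 44 to 524 outside the clock lists. The cause was not tested. Pseudocounts of 0.5 and 10 (153 and 164 calls), a mean filter of 50 (153), no filter (103), quantile scaling (156), the adjusted p alone (188) and leaving out the gland genes (146) stayed within 1.5 times the 150. The 2 tissue differences became 18 with array weights, 0 with a replicate block (added after seeing the data) and 0 to 7 without 1 library.

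The replicate block used the shared numbers 1 to 4 and gave 46 calls (39 shared), 31 higher and 15 lower, 37 outside the clock lists. Same-numbered libraries correlated at 0.288, -0.161, -0.168 and -0.297. So few values cannot tell whether the numbers stand for something the libraries share.

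Of 4143 genes outside the clock lists with a mean under 100, 17 were called, against 94 of 6165 from 100 to 1000 and 27 of 1952 over 1000. The part of depth in this was not tested.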
